A study of Mus musculus with 16 samples.

Results

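The genes described here make and mark red blood cells: globin chains, erythroid transcription factors, the enzymes of haem synthesis, iron carriers, the erythropoietin receptor, and proteins of the red cell membrane and cytosol. They were named as a list of 33 genes of the 34650 gene names on the array, and a member was any probe that carried that name. Of the 33, 32 had a probe, 44 probes in all, and these 32 were well above background on all 16 arrays and entered the test. The remaining member, Spnb1 (spectrin beta), had no probe under that name. Its current RefSeq name, Sptb, had a probe that exceeded background on 2 arrays of each group, and it was not tested.

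Gene expression was measured in total RNA from the bone marrow of 16 mice on 1-colour Agilent arrays, with 1 array per mouse. KO chimeras (8 mice) were C57BL/6J animals that were irradiated with 950 rad and then given whole marrow by a single injection behind the eye. Donors came from a double knockout strain with targeted alleles of Adrb1, the beta1 adrenergic receptor gene, and of another beta adrenergic receptor gene. The labels give a donor to C57BL/6J ratio of 1 to 4, a recovery of 2 to 3 months, and no age or sex. Controls (8 mice) are labelled as C57BL/6J mice with the same 950 rad, and no donor is named for them, so that the genotype of the graft, the grafting itself and the background of the donor strain cannot be told apart in this comparison. The share of host and graft cells in each marrow was not analysed here.

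Red cells form in the marrow from progenitors that come under the control of erythropoietin, which signals through its receptor Epor. Gata1 and Klf1, the central erythroid transcription factors, bind GATA and CACC boxes near genes of globin, haem synthesis and the membrane skeleton. Haem is built from glycine and succinyl-CoA in a chain of enzymes that starts with Alas2 in the mitochondrion and ends there with insertion of iron by Fech. Late erythroblasts are tied to macrophages in erythroblastic islands, where they lose the nucleus and become reticulocytes. Beta adrenergic receptors carry the signal of noradrenaline from sympathetic nerves, which run through the marrow.

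The 250 bases before the start of a gene were read from RefSeq promoter windows (build GRCm38.p6), which held 30 promoters of 25 of the members. They are shown for 5 genes that the results turn on: a globin, the master factor, the first haem enzyme and the only members past the test. Capitals mark the GATA box (AGATAA or TGATAA) and the CACC box (CCNCNCCC), each searched on both strands, so that a CACC box on the other strand reads as a run rich in G.
Hba-a1, chr11:32283422-32283671, plus strand: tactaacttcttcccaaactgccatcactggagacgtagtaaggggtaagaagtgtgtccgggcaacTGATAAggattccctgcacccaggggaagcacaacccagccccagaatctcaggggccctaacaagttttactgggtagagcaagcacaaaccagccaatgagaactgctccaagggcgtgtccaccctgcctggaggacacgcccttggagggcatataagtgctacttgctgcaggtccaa
Gata1, chrX:7967911-7968160, minus strand: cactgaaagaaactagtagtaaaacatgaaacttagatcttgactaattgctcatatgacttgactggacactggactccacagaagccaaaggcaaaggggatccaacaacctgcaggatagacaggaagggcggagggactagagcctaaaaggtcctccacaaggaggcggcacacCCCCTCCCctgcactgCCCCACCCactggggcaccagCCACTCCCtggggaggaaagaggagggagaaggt
Alas2, chrX:150547167-150547416, plus strand: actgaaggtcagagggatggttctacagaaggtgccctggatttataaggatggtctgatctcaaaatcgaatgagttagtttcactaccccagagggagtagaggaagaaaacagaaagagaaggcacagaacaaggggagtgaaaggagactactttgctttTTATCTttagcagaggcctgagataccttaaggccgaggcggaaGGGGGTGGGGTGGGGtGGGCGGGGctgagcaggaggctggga
Hemgn, chr4:46404184-46404433, minus strand: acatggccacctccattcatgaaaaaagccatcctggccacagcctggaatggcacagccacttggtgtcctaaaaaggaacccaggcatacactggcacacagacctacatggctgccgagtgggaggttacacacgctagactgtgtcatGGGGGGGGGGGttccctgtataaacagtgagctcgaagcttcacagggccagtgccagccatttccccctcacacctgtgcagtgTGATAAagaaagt
Ppox, chr1:171281187-171281436, minus strand: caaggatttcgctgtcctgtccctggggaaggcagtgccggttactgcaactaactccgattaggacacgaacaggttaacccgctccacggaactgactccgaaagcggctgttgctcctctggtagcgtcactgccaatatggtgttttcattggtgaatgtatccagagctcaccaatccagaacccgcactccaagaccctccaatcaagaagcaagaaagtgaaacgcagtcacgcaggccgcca
A GATA box of either form was found in 15 of the 30 member promoters and in 16.6% of all 32851 windows of the same length. The TGATAA form was in 9 of the 30 against 7.94% of all, and the AGATAA form in 7 of the 30 (23.3%) against 9.99%. The CACC box was in 56.7% of member promoters against 45.9% of all, and a promoter with both boxes was 16.7% against 4.52%. The E box (CANNTG) and the TATA box (TATAAA) were in 70.0% and 13.3% of member promoters, against 66.2% and 12.4% of all. In these 250 bases Hemgn had matches to both patterns. Its match to the CACC pattern was an unbroken run of G, in which the free positions (N) held the same base as the rest. The letters of neither box were in the window of Ppox. A match of letters is a description of the sequence and not of binding.

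Signals are given as log2 of the processed signal over the array's 75th percentile, so that 1 unit is a doubling, and a level is not compared between genes. The 75th percentile itself ran from 231 to 558 in controls and from 127 to 545 in KO chimeras, where the dimmest array was that of KO2. The targeted gene Adrb1 lay below the array's 75th percentile in both groups, at -2.58 to -2.34 in controls and -2.99 to -2.19 in KO chimeras on its brighter probe. That probe was well above background on all 8 arrays of each group, with a difference of -0.0004 ± 0.11 (limma, adjusted p = 0.999). The labels do not say where the gene was disrupted relative to that probe, so its level does not check the labels, and groups follow the sample titles. Over all 23061 genes tested, limma called 5140 at an adjusted p under 0.05 (22.3%), with 2360 higher (10.2%) and 2780 lower (12.1%) in KO chimeras.

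Few of the erythroid genes passed the test between the groups: 1 of 32 was higher in KO chimeras and 1 of 32 was lower, 3.12% each against 10.2% and 12.1% of all genes. The gene that rose was Hemgn, a nuclear factor of haematopoietic cells, and the gene that fell was Ppox, the enzyme that oxidises protoporphyrinogen in the mitochondrion. The other 30 had adjusted p between 0.145 and 0.995, and 1 of them, Epb4.1, had an unadjusted p under 0.05. Their intervals were wide, because these genes varied strongly between mice of the same group: the within-group SD had a median of 0.77 over the members and 0.27 over all genes, and 28 of the 32 members lay above the 90th percentile of all genes, which was 0.59. The median SE of a member's difference was 0.36, against 0.13 over all genes, so that a missed threshold here does not show equal levels. In whole marrow, fewer erythroid cells and less of each RNA per cell cannot be told apart.

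**Figure D1:**
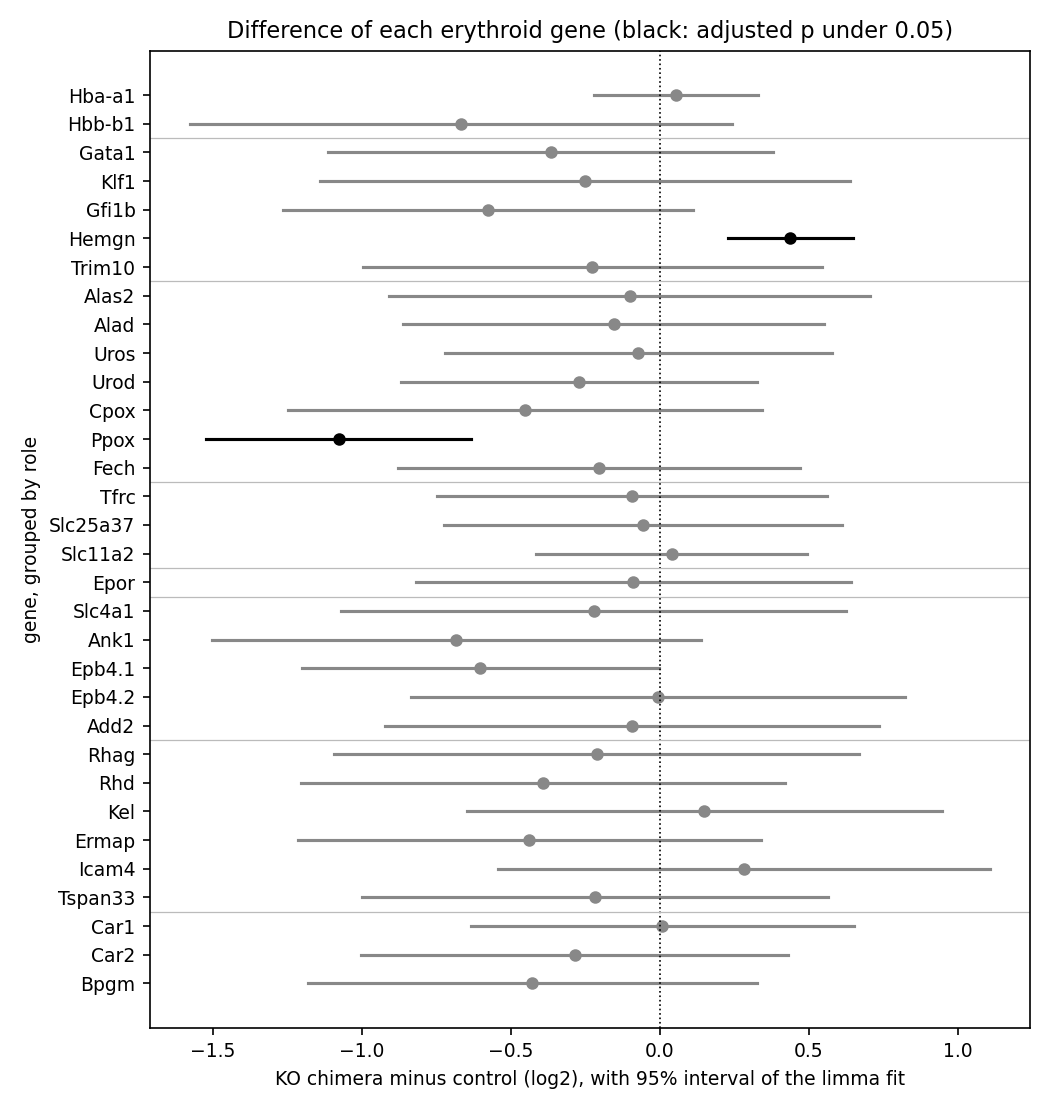
Difference between KO chimeras and controls (log2, x axis) for each of the 32 erythroid genes measured, grouped by role, with the 95% interval of the limma fit over 8 mice per group; black marks an adjusted p under 0.05. Hemgn lies to the right of 0 and Ppox to the left, and the intervals of most other genes span more than 1 unit.

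Of the 32 differences, 26 were below 0 and 6 above, with a median of -0.22 against -0.02 over all genes. That lean rested on few mice. Without KO1 the count below 0 was 15 of 32, and without KO2 it was 17. With array brightness as a covariate 14 were below 0 and the median was 0.03, and without the 2 mice of each group farthest in erythroid level (C4, C5, KO1 and KO2, an alternative chosen after seeing the data) 10 were below 0 and the median was 0.15.

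Globin chains carry the oxygen of the red cell, and both members here are adult chains. Hba-a1, the alpha chain, had a lowest, median and highest signal of 9.13, 9.63 and 10.03 in controls and of 9.33, 9.68 and 9.93 in KO chimeras. The ranges overlapped almost completely, with a difference of 0.05 ± 0.13 (SE, n = 8 mice per group, 95% interval -0.22 to 0.33, adjusted p = 0.815). Hbb-b1, the beta chain, had 5.87, 7.08 and 7.56 in controls and 4.26, 5.88 and 7.79 in KO chimeras. Here the KO chimeras spread wider at both ends, and the difference was -0.67 ± 0.43 (interval -1.58 to 0.24, adjusted p = 0.300). The lowest Hbb-b1 value, 4.26, belonged to KO4, in which Klf1 and Gata1 were at 2.98 and 3.78, inside the range of the controls. The alpha and beta chain genes each have a near-identical copy in the genome (Hba-a2 and Hbb-b2), and cross-hybridisation between copies was not tested.

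Among the transcription factors, Gata1 had 2.94, 4.25 and 4.56 in controls and 2.23, 3.98 and 4.68 in KO chimeras. The lowest value of each group stood well below its median, and the difference was -0.37 ± 0.35 (interval -1.11 to 0.38, adjusted p = 0.510). Klf1 had 1.096, 2.65 and 3.23 in controls and 0.41, 2.64 and 3.41 in KO chimeras, with medians that nearly coincided. Its difference was -0.25 ± 0.42 (interval -1.14 to 0.64, adjusted p = 0.727). Gfi1b, a repressor needed for erythroid and megakaryocyte growth, differed by -0.58 ± 0.33 (adjusted p = 0.229), and Trim10, a RING finger protein of terminal erythroid maturation, by -0.23 ± 0.36 (adjusted p = 0.714).

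Hemgn was the only member past the test in the upward direction. Its lowest, median and highest signals were 5.52, 5.72 and 6.05 in controls and 5.73, 6.24 and 6.39 in KO chimeras. Of the KO chimeras, 7 lay above the highest control, and KO6, at 5.73, lay among the controls. The difference was 0.44 ± 0.10 (interval 0.23 to 0.65, adjusted p = 0.00404), 1.35-fold. In limma fits within each scan day, chosen after seeing the data, it was 0.44 on the first (adjusted p = 0.164, n = 4 mice per group) and 0.44 on the second (adjusted p = 0.0398), and leaving out each mouse in turn gave 0.40 to 0.50. Its probe lies at chr4:46407248-46407307 of build mm9, the build of the array files, and exon positions in that build were not used here.

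The haem enzymes held the other call. Ppox had 2.62, 3.16 and 3.36 in controls and 1.13, 2.07 and 2.70 in KO chimeras. Of the KO chimeras, 7 lay below every control, and KO7, at 2.70, lay above the lowest control, C5, at 2.62. The difference was -1.08 ± 0.21 (interval -1.52 to -0.63, adjusted p = 0.00131), 2.11-fold lower. Within the first scan day it was -1.12 (adjusted p = 0.0548) and within the second -1.04 (adjusted p = 0.0648). With the filter on dim probes redone within each day, in place of the genes of the fit to all 16 mice, Ppox passed on the first (adjusted p = 0.0420) and not on the second (adjusted p = 0.0641). Leaving out each mouse in turn gave -1.17 to -0.95, past the threshold every time. The Ppox probe spans chr1:173207452-173207629 (mm9), and it was the only one of that name.

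The enzymes before and after Ppox in the pathway did not pass the test. Alas2, the first and rate-limiting enzyme, had 4.40, 5.72 and 6.60 in controls and 4.45, 5.19 and 6.96 in KO chimeras. These ranges nearly matched, with a difference of -0.10 ± 0.38 (interval -0.91 to 0.71, adjusted p = 0.888). Alad and Uros, which build the tetrapyrrole ring in the cytosol, differed by -0.16 ± 0.33 and -0.07 ± 0.31. Urod, which trims the ring, differed by -0.27 ± 0.28, and Cpox, the step directly before Ppox, by -0.45 ± 0.38 (adjusted p = 0.438). Fech, which follows Ppox, differed by -0.20 ± 0.32 (adjusted p = 0.706). The differences of all 7 enzymes were below 0, and with array brightness as a covariate those of Alas2, Alad and Uros turned to 0.11, 0.08 and 0.09.

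**Figure D2:**
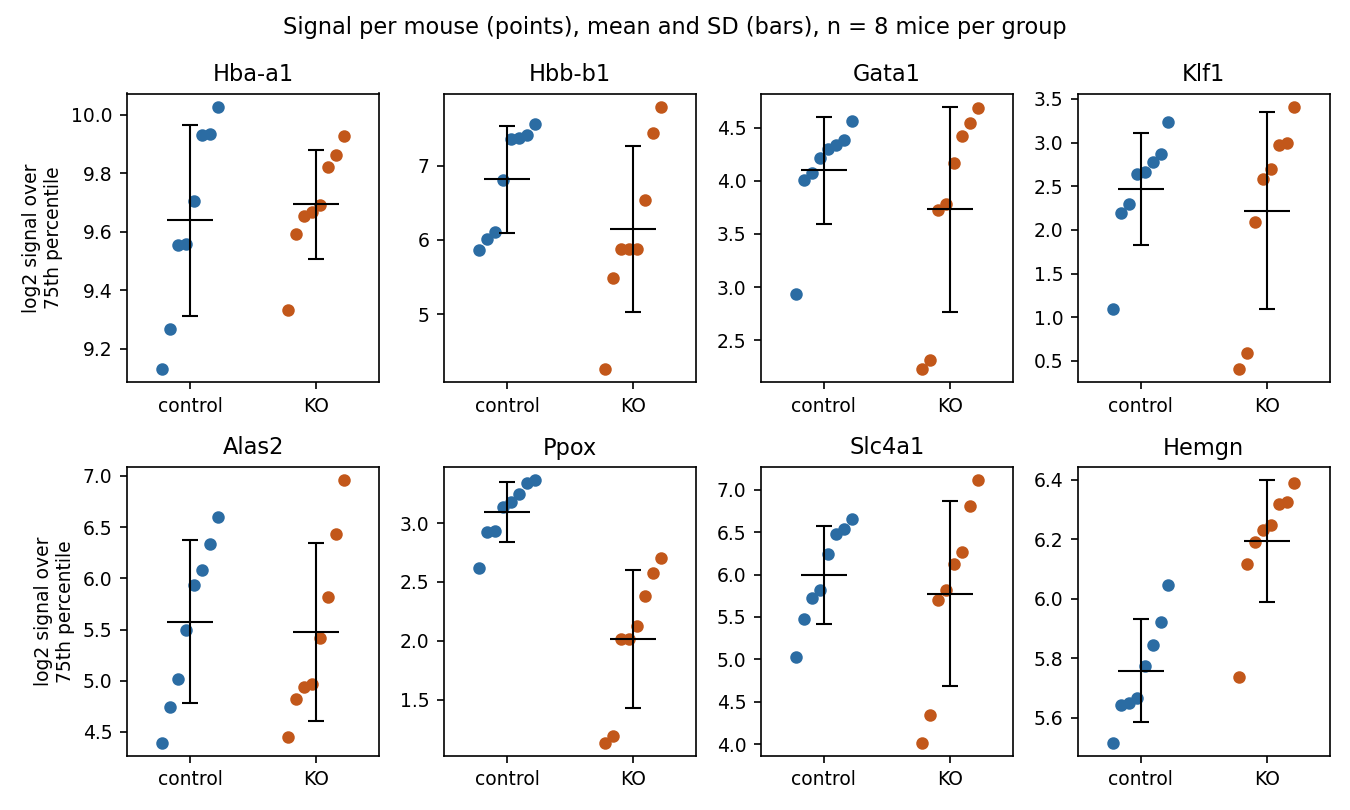
Signal (log2 over the array's 75th percentile, y axis, a separate range in each panel that does not start at 0) of 8 erythroid genes in each of 8 controls and 8 KO chimeras, as points sorted by value, with bars for the group mean and SD. Ppox and Hemgn are the panels in which 7 of the 8 KO chimeras lie beyond the controls, and low mice stand apart in the panels of Gata1, Klf1 and Slc4a1.

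Iron enters erythroblasts through Tfrc, the transferrin receptor. Tfrc had 2.14, 3.11 and 3.66 in controls and 1.68, 3.33 and 3.75 in KO chimeras. Its KO chimera median was above that of the controls and its lowest value below, with a difference of -0.09 ± 0.31 (interval -0.75 to 0.56, adjusted p = 0.872). Slc25a37, or mitoferrin, which carries iron into the mitochondrion, differed by -0.06 ± 0.32, and Slc11a2, which moves iron out of the endosome, by 0.04 ± 0.22. Epor, the erythropoietin receptor, had 2.07, 3.56 and 3.78 in controls and 1.75, 3.62 and 4.11 in KO chimeras. The medians of Epor lay close together, and the difference was -0.09 ± 0.35 (interval -0.82 to 0.64, adjusted p = 0.892).

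Slc4a1, the anion exchanger that anchors the red cell skeleton, had 5.03, 6.03 and 6.65 in controls and 4.02, 5.97 and 7.11 in KO chimeras. The KO chimeras reached beyond the controls at both ends, with a difference of -0.22 ± 0.40 (interval -1.07 to 0.63, adjusted p = 0.747). Ank1, the ankyrin that links the exchanger to spectrin, differed by -0.68 ± 0.39 (interval -1.50 to 0.14, adjusted p = 0.234), and Epb4.1, the protein that joins spectrin to actin, by -0.60 ± 0.28 (interval -1.20 to -0.00, adjusted p = 0.145). Epb4.2 and the adducin Add2 differed by -0.01 ± 0.39 and -0.09 ± 0.39.

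The 6 surface proteins lay between -0.44 and 0.28, with SE from 0.37 to 0.42. Rhag and Rhd of the Rh complex differed by -0.21 and -0.39, the endopeptidase of the Kell blood group, Kel, by 0.15, and the adhesion molecule Icam4 by 0.28. Ermap, an erythroblast membrane protein, differed by -0.44, and the tetraspanin Tspan33 by -0.22. In the cytosol, the carbonic anhydrases Car1 and Car2 differed by 0.01 and -0.29, and Bpgm, which makes the bisphosphoglycerate that lowers the oxygen affinity of haemoglobin, by -0.43. None of these 9 genes passed the test, and their adjusted p lay between 0.438 and 0.990.

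Of the 32 members, 23 had a single probe and 9 had several, for which the brightest was used. Of the 44 probes tested singly, 1 was called higher and 3 lower. A dimmer Slc25a37 probe (chr14:69902797-69902856, mm9) gave -1.21 ± 0.24 (adjusted p over all probes 0.00135), while the brightest, at chr14:69860020-69860079, gave -0.06. Both followed the erythroid level of the mice, with r of 0.82 and 0.83 for the dimmer and 0.84 and 0.94 for the brighter in controls and KO chimeras. The probes of Epb4.1 ran from -0.93 to -0.12, with 1 of 3 called lower, and those of Tfrc from -0.09 to 0.39. For Epb4.2 the brighter probe gave -0.01 ± 0.39 and the dimmer -0.92 ± 0.38, and neither was called. Probes of one gene can read different transcripts, and which of them carries the difference was not tested.

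The larger pattern was between mice. An erythroid level was computed for each mouse as the median over the 32 genes of the deviation from the gene's mean over all mice. It ran from -0.94 in C5 to 0.64 in C4 among controls, a 2.98-fold range, and from -1.44 in KO2 to 0.80 in KO7 among KO chimeras, a 4.73-fold range. KO1, at -1.34, stood beside KO2 at the low end, and the next KO chimera, KO6, was at -0.24. The group medians were 0.14 and 0.05. The SD of the level was 0.50 in controls and 0.86 in KO chimeras, and the difference between these was not tested.

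**Figure D3:**
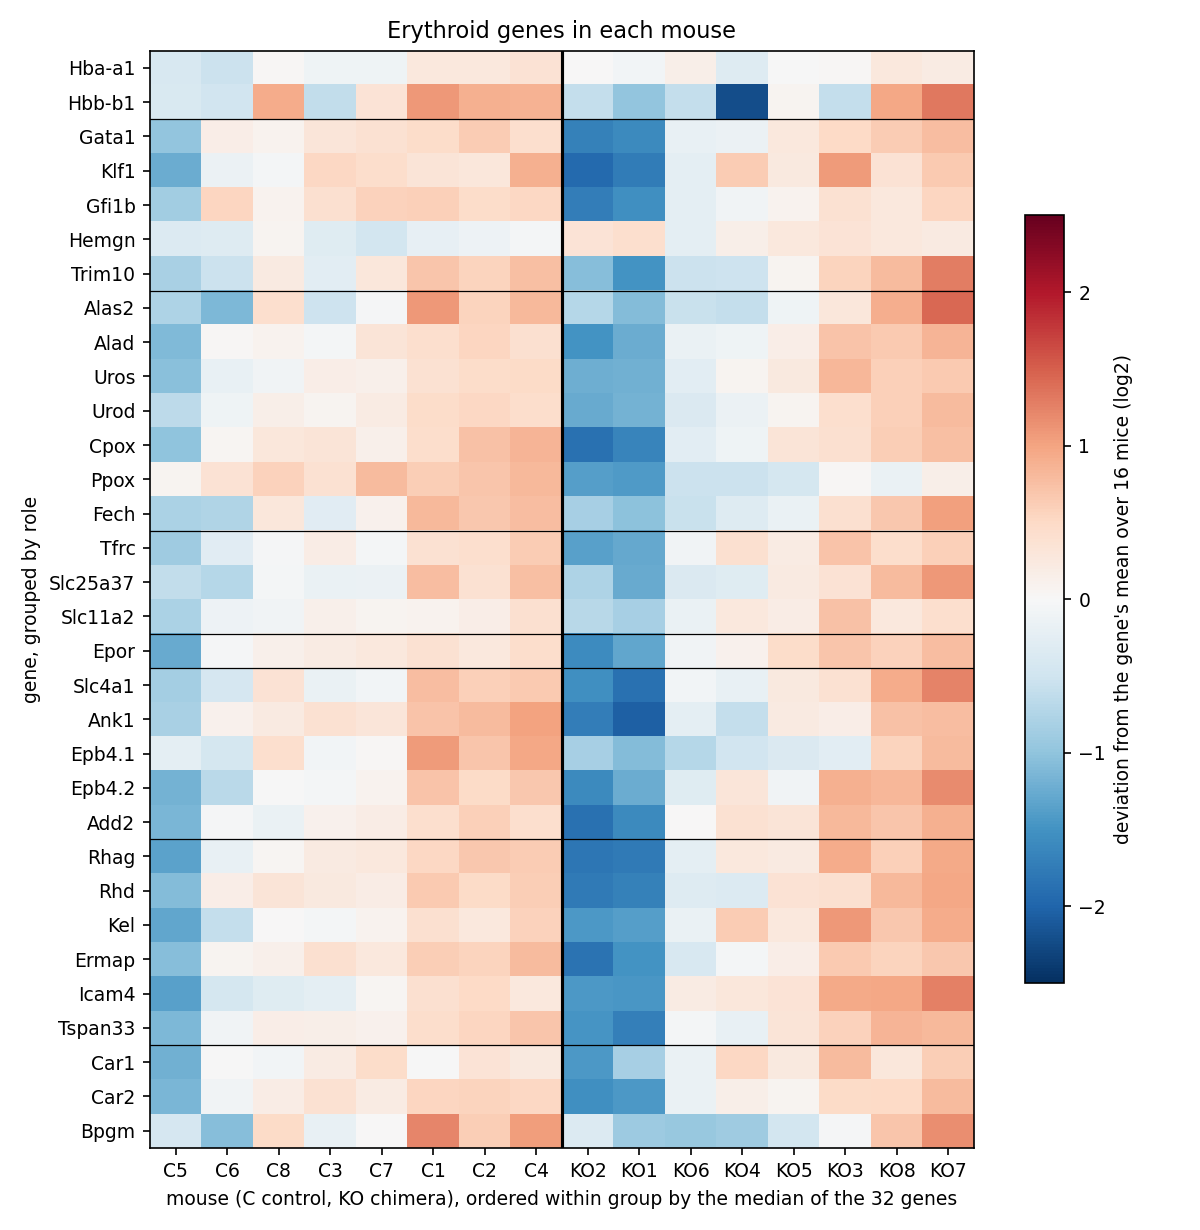
Deviation of each erythroid gene from its mean over 16 mice (log2, colour) in each mouse, with genes grouped by role on the y axis and mice ordered by erythroid level within each group on the x axis. Nearly all genes are low together in C5, KO1 and KO2 and high together in KO7, while Hemgn follows least and Ppox is lower in KO chimeras than in controls.

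Markers of other marrow cells were read in the same mice. The neutrophil granule genes, 13 of 13 measured, summed up as the median deviation per mouse, lay between -0.21 and 0.22 in controls and between -0.21 and 0.30 in KO chimeras. The mice lowest in erythroid level, C5, KO1 and KO2, had 0.22, 0.19 and 0.30, the highest values of their groups. The median correlation of these 13 genes with the erythroid level was -0.77 in controls and -0.48 in KO chimeras. The platelet genes lay between 0.02 and 0.90 in controls and between -0.92 and 0.26 in KO chimeras. Their median correlation with the erythroid level was 0.53 in controls and 0.44 in KO chimeras. In both measures C5 was the lowest control and C4 the highest, and KO2 was the lowest KO chimera and KO7 the highest. Between these ends the order of the KO chimeras differed. KO1 was at -0.68, KO4 at -0.75 and KO8, the second highest in erythroid level, at -0.73. The B lineage genes, 11 of 11 measured, lay between -0.96 and 0.58 in controls and between -0.37 and 0.75 in KO chimeras. Their highest KO chimeras were KO1 and KO2, at 0.69 and 0.75, while C5 was at 0.08, and the median correlation of these genes with the erythroid level was 0.05 in controls and -0.39 in KO chimeras. The median correlation was 0.04 and 0.29 for the T lineage, -0.36 and -0.38 for the macrophage, -0.48 and -0.48 for the stem and progenitor and -0.39 and 0.10 for the skeletal muscle list. The part of these cells, and of array brightness, in the erythroid values was not tested.

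Within each group the members rose and fell together. Over 496 pairs, the median Pearson r was 0.88 across the 8 controls (range 0.04 to 1.00) and 0.94 across the 8 KO chimeras (range -0.28 to 1.00). Pairs with r above 0.9 were 44.6% in controls and 58.5% in KO chimeras, against 0.398% and 0.557% of all pairs of genes on the array, whose median r was 0.04 and 0.00. Without the 2 mice of each group farthest in level, the medians were 0.78 and 0.87. Centring each value within its scan day gave 0.88 and 0.95. These correlations share mice, arrays and scaling, and carry no p.

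Hemgn was the clearest exception. Its median r with the other members was 0.42 in controls and -0.18 in KO chimeras, the lowest of the members in each group. All 26 of the pairs below 0 in KO chimeras are seen in its row and column of the correlation matrix. In controls its r was above 0 with every member and reached 0.67, with Hbb-b1. The globins were also weakly tied to the rest in KO chimeras, with a median r of 0.39 for Hba-a1 and 0.50 for Hbb-b1. In KO1 and KO2, where most members were at their lowest, Hemgn lay at or above its KO chimera median.

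**Figure D4:**
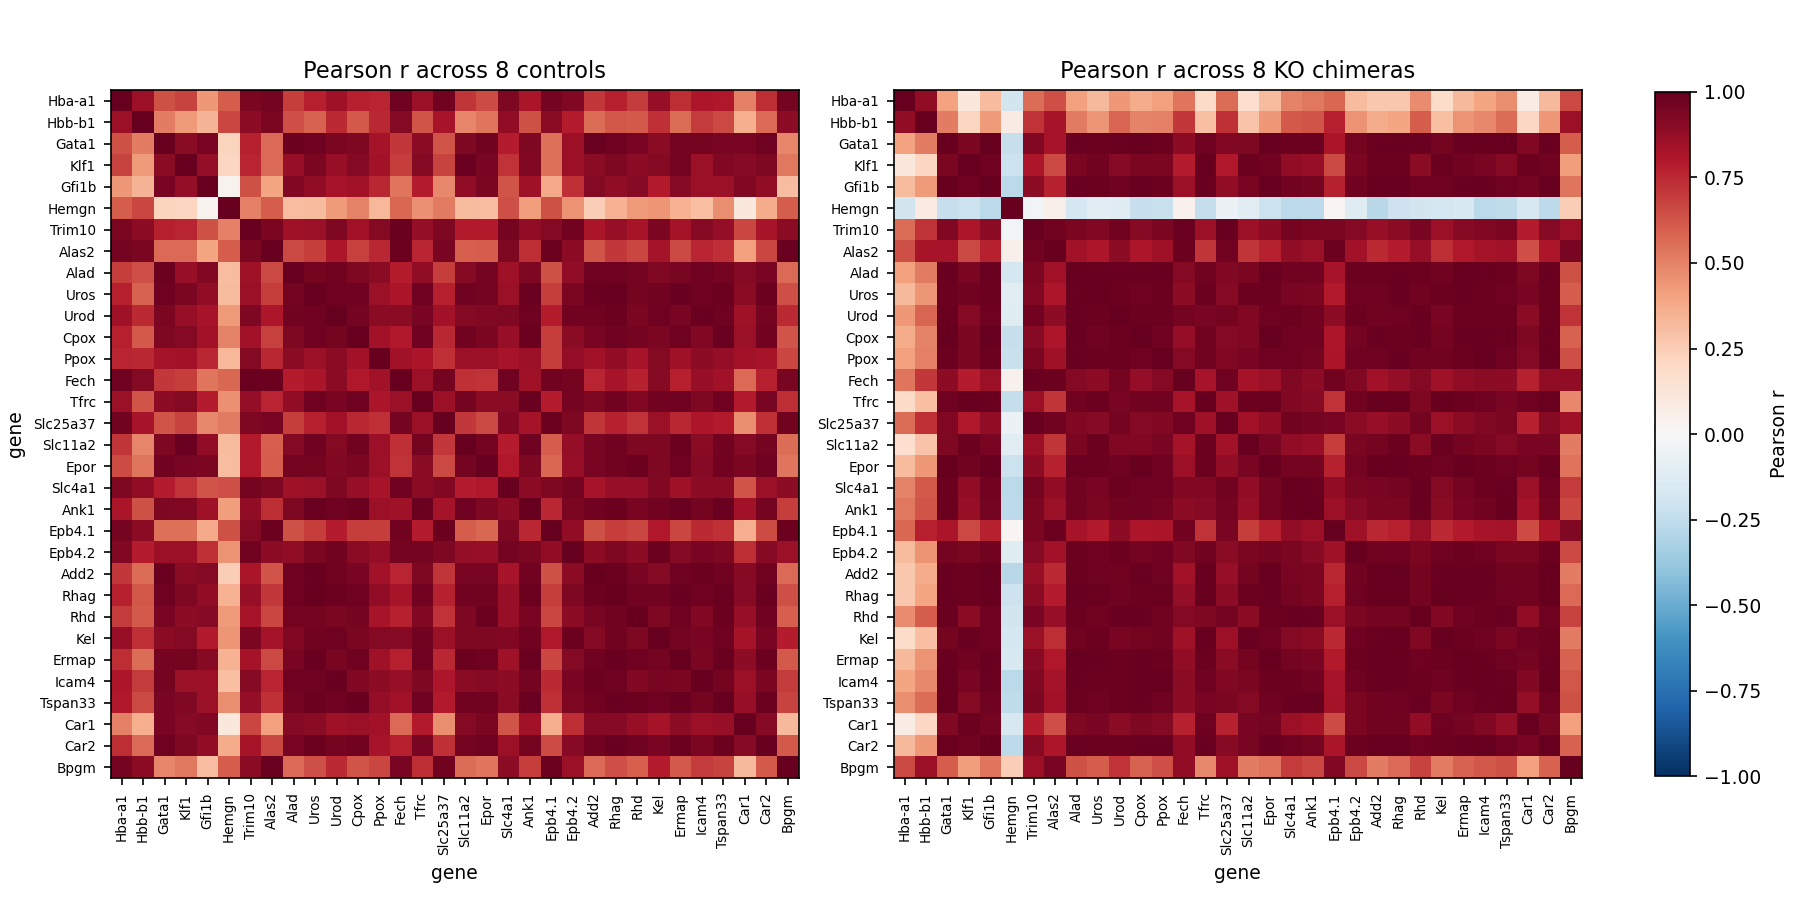
Pearson r (colour) between each pair of the 32 erythroid genes across 8 controls (left) and across 8 KO chimeras (right), genes in the order of their roles on both axes. The median is 0.88 on the left and 0.94 on the right, Hemgn stands out as the pale row, and the globins, Alas2, Epb4.1 and Bpgm form a weaker band.

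A finer structure lay inside the module, described here by genes picked after their values were seen. Alas2, Epb4.1, Slc25a37, Fech and the globins followed Bpgm more closely than Gata1 in controls: Alas2 had r of 0.99 with Bpgm and 0.57 with Gata1, Epb4.1 had 0.98 and 0.55, and Hba-a1 had 0.96 and 0.64. In KO chimeras the same values were 0.95 and 0.82 for Alas2, 0.92 and 0.82 for Epb4.1, and 0.66 and 0.40 for Hba-a1. The order did not hold for all of them there: Slc25a37 had 0.85 with Bpgm and 0.93 with Gata1, and Fech had 0.89 with each. Gfi1b, Cpox, Car1 and Epor followed Gata1: Gfi1b had r of 0.95 and 0.99 with Gata1 in controls and KO chimeras but 0.31 and 0.54 with Bpgm. Cpox had 0.94 and 1.00 with Gata1, and Epor had 0.97 and 0.99. In controls C5 lay far below the other mice in Gata1, Gfi1b, Cpox, Car1 and Epor. For Gata1 it was at 2.94, with the nearest control at 4.00, and for Gfi1b at 1.97, with the nearest at 2.92. The r of these genes in controls thus lean on that mouse, and they were not computed without it.

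For 5 relations in each group, 10 tests in all, exact permutation over all pairings of the mice was used. Slc4a1 and Ank1 had r = 0.992 in KO chimeras (exact p = 4.96e-05, adjusted 4.96e-04; rho = 0.976, exact p = 3.97e-04) and r = 0.896 in controls (exact p = 0.00191, adjusted 0.00637; rho = 0.833, exact p = 0.0154). Without the 2 mice farthest in Slc4a1, r was 0.956 and 0.817. Gata1 and Klf1 had r = 0.943 in KO chimeras (exact p = 0.00543, adjusted 0.0109; rho = 0.833, exact p = 0.0154) and 0.904 in controls (exact p = 0.0138, adjusted 0.0172; rho = 0.571, exact p = 0.151). Without KO1 and KO2 the KO chimera value was 0.518, so that it rests on those mice, and without C2 and C5 the control value was 0.769.

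Alas2 and Hbb-b1 had r = 0.944 in controls (exact p = 0.00156, adjusted 0.00637; rho = 0.833, exact p = 0.0154) and 0.821 in KO chimeras (exact p = 0.0120, adjusted 0.0172; rho = 0.905, exact p = 0.00456). Without the 2 mice farthest in Alas2, r was 0.925 in controls and 0.375 in KO chimeras, where it rests on KO7 and KO8. Hba-a1 and Hbb-b1 had r = 0.854 in controls (exact p = 0.0125, adjusted 0.0172; rho = 0.714, exact p = 0.0576) and 0.884 in KO chimeras (exact p = 0.00459, adjusted 0.0109; rho = 0.810, exact p = 0.0218), and 0.823 and 0.671 without the farthest mice. After quantile normalization this pair no longer passed, at r = 0.691 (adjusted p = 0.0876, exact permutation) and 0.522 (adjusted p = 0.212, exact permutation). Alas2 and array brightness gave r = 0.0424 in controls (exact p = 0.918; rho = -0.0476, exact p = 0.935) and 0.642 in KO chimeras (exact p = 0.0929, adjusted 0.103; rho = 0.738, exact p = 0.0458, adjusted 0.0655), and 0.357 and 0.179 without the farthest mice.

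Each gene was also set against the erythroid level. With the erythroid level as a covariate, an alternative chosen after seeing the data and built from the members themselves so that it centres them near 0, 3 members were called higher and 3 lower, against 11.2% and 13.3% of all genes called in that fit. Ppox had -0.93 ± 0.08 (adjusted p = 2.19e-07), Ank1 -0.40 ± 0.09 (adjusted p = 0.00483) and Gfi1b -0.34 ± 0.12 (adjusted p = 0.0387). On the other side, Icam4 had 0.57 ± 0.08 (adjusted p = 6.01e-05), Hemgn 0.44 ± 0.10 (adjusted p = 0.00466) and Kel 0.42 ± 0.11 (adjusted p = 0.0107).

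Relative to the median of the other 31 genes in the same mouse, Ppox lay between 0.16 and 1.05 in controls and between -0.80 and 0.07 in KO chimeras, with no overlap. Ank1 lay between 0.14 and 0.37 in controls and between -0.75 and 0.11 in KO chimeras, also with no overlap. The plain values overlapped for all 32 members, against 6.14% of all genes without overlap. On the relative scale 2 of 32 members and 0.867% of all genes had none. A gene that does not follow the erythroid level takes on its spread on that scale, so nothing is read from the members' count against this share. Icam4 lay between -0.47 and -0.04 in controls and between -0.15 and 0.47 in KO chimeras, where KO1 alone lay among the controls.

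**Figure D5:**
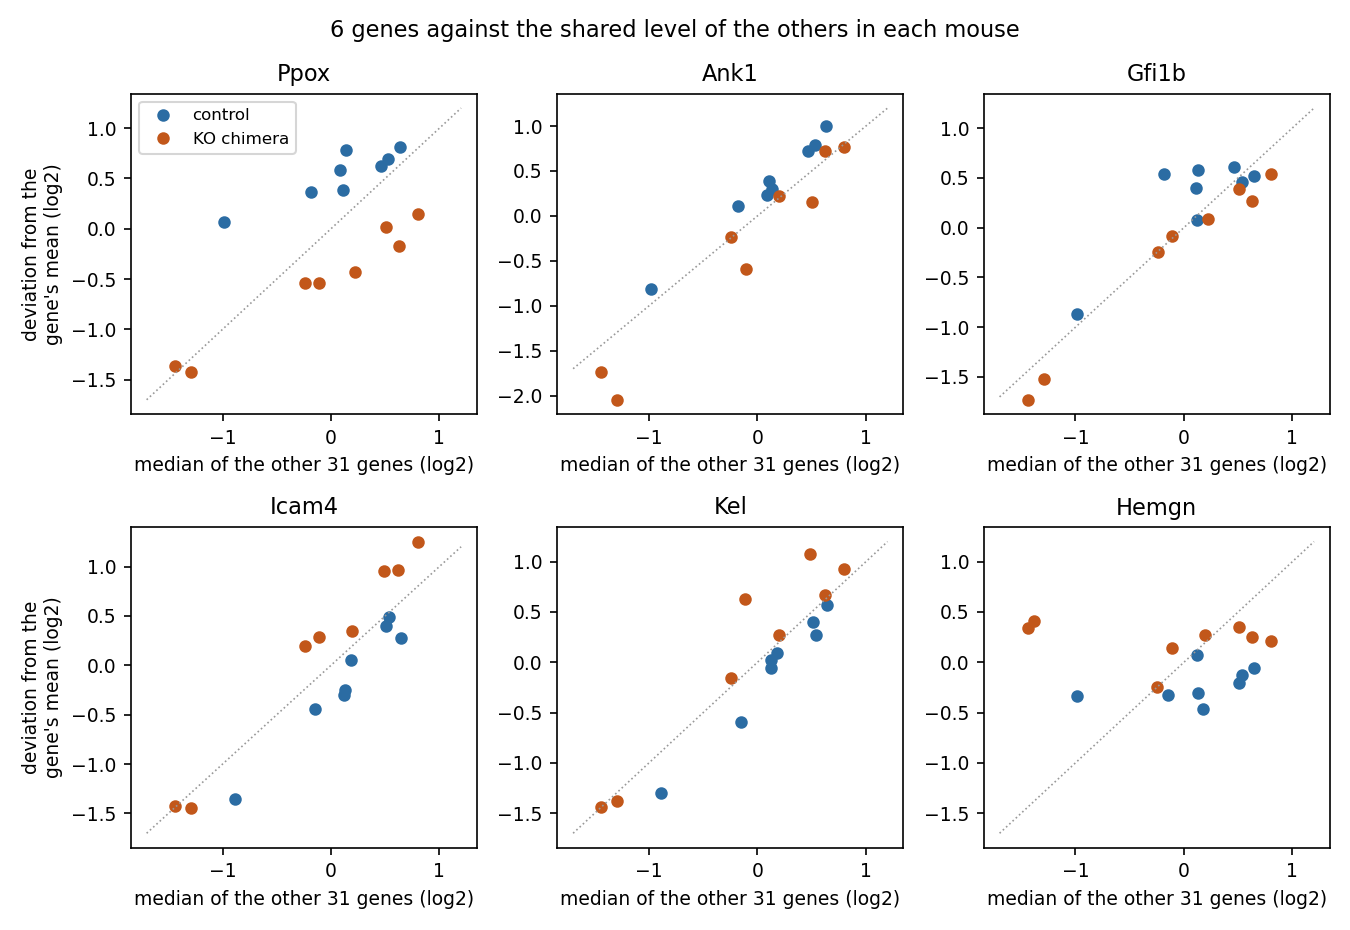
Deviation of a gene from its mean (log2, y axis) against the median deviation of the other 31 erythroid genes in the same mouse (log2, x axis) for 6 genes; each point is a mouse, and the dotted line marks equal values. Ppox and Ank1 run lower in KO chimeras at a given erythroid level, Icam4 and Kel run higher, and Hemgn follows the level least.

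Further genes of the pathway were read from 8 lists, 154 genes tested, of which 11 were higher (7.14%) and 11 lower (7.14%), against 10.2% and 12.1% of all genes. In limma 0 of the 7 globin chains and chaperones outside the members passed, also at an unadjusted p under 0.05, with a median difference of 0.02. Hbb-b2, the other adult beta chain, differed by -0.15 ± 0.26 (adjusted p = 0.728), and Hbq1a, a theta chain, by 0.55 ± 0.39 (adjusted p = 0.362). The r of these 7 genes with the erythroid level had a median of 0.78 in controls and 0.66 in KO chimeras, and the genes differed in it. Ahsp, the alpha chain chaperone, had 0.98 and 0.99, the embryonic Hbb-bh1 had 0.17 and 0.23, and Hba-a2 had 0.54 and -0.45.

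In the list of haem and mitochondrial iron genes, 2 of 23 rose and 0 fell, with a median of -0.09 and a median r with the erythroid level of 0.86 and 0.92. Slc25a39, a mitochondrial carrier, had 0.69 ± 0.24 (adjusted p = 0.0471) and Hebp1, a haem-binding protein, 0.77 ± 0.26 (adjusted p = 0.0428). These calls stand near the threshold: Slc25a39 lost it in 10 of the 16 fits that left out a mouse, and Hebp1 in 12. Of the iron uptake and storage genes, 1 of 17 rose and 2 fell, with a median of 0.14. Fth1, the ferritin heavy chain, rose by 0.38 ± 0.08 (adjusted p = 0.00232), while Slc39a14, a zinc and iron importer, fell by 0.48 ± 0.12 (adjusted p = 0.00681) and Pcbp2, an iron chaperone and RNA-binding protein, had -0.36 ± 0.12 (adjusted p = 0.0337), a call lost in 8 of the 16 fits and with the mean of its probes (-0.23, adjusted p = 0.0581). With normexp and quantile normalization Slc39a14 was at -0.22 (adjusted p = 0.0138).

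Among 21 erythroid transcription regulators, 1 rose and 2 fell, with a median of -0.06. Foxo3, a forkhead factor of late erythroblasts, had -3.53, -3.12 and -2.87 in controls and -2.44, -2.04 and -1.83 in KO chimeras, without overlap, and rose by 1.07 ± 0.12 (adjusted p = 5.75e-06). With normexp background correction and quantile normalization its difference was smaller, at 0.41, and still passed (adjusted p = 2.32e-04). Gata2, the GATA factor of progenitors that Gata1 replaces, fell by 0.56 ± 0.11 (adjusted p = 0.00146), and Nfe2l2, a regulator of antioxidant genes, by 0.54 ± 0.09 (adjusted p = 5.14e-04). In the erythropoietin signalling list 2 of 16 rose and 3 fell. Those that fell were Kit, the stem cell factor receptor, at -0.90 ± 0.09 (adjusted p = 1.45e-06), Cish, a feedback inhibitor, at -0.68 ± 0.09 (adjusted p = 3.57e-05), and Jak2, the kinase bound to Epor, at -0.49 ± 0.09 (adjusted p = 8.29e-04). For each of these the groups did not overlap. Kit and Gata2 also belong to the list of stem and progenitor markers, in which 1 of 10 rose and 4 fell, against 10.2% and 12.1% of all genes.

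Of 26 further membrane genes, 3 rose and 1 fell, with a median of -0.10. Cd44, an adhesion receptor found on many marrow cells, rose by 0.57 ± 0.10 (adjusted p = 7.85e-04), Dmtn, or dematin of the red cell skeleton, by 0.51 ± 0.11 (adjusted p = 0.00293), and Slc2a1, a glucose transporter, by 0.62 ± 0.16 (adjusted p = 0.00847). With the mean of all kept probes, Cd44 and Dmtn no longer passed (0.18, adjusted p = 0.310, and 0.43, adjusted p = 0.226). Named after their values were seen, Cd36, a fatty acid receptor of early erythroblasts and other cells, was the gene of this list that fell, at -0.83 ± 0.27 (adjusted p = 0.0386), and Pim1 and Socs3 were those that rose in the erythropoietin signalling list, at 0.52 ± 0.11 (adjusted p = 0.00197) and 0.76 ± 0.18 (adjusted p = 0.00508). In red cell glycolysis and antioxidant genes 1 of 20 rose, Glrx at 0.67 ± 0.12 (adjusted p = 7.27e-04), and 1 fell, Cat, or catalase, at -0.42 ± 0.11 (adjusted p = 0.0111). In terminal maturation 1 of 24 rose and 2 fell. Bnip3, a mitophagy receptor, fell by 0.38 ± 0.08 (adjusted p = 0.00388) and ran against the erythroid level, with r of -0.85 and -0.87. Rbm38 had 0.50 ± 0.17 (adjusted p = 0.0466) and Riok3 -0.33 ± 0.11 (adjusted p = 0.0489), and each lost the call in 11 of the 16 fits that left out a mouse.

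Counts among markers of neighbouring cells stand beside 10.2% of all genes higher and 12.1% lower, and no list was tested against these shares. The megakaryocyte and platelet list had 2 of 15 higher and 10 lower, with a median of -1.02, led by Itgb3 at -1.57 ± 0.12 (adjusted p = 3.67e-08) and Clec1b at -2.87 ± 0.22 (adjusted p = 5.62e-08). Megakaryocytes share Gata1 and Gfi1b with the erythroid line. Neither of these members passed the test, but their 95% intervals were wide, at -1.11 to 0.38 and -1.26 to 0.11, and do not show equal levels. With the erythroid level as a covariate Gfi1b was called lower (limma, adjusted p = 0.0387). That fit was chosen after seeing the data, and the level is built from members that include Gfi1b. Relative to the other members, Gfi1b lay between -0.13 and 0.72 in controls and between -0.36 and 0.03 in KO chimeras, which overlap. The part of these factors in the platelet genes was not tested. For macrophages of the erythroblastic island, 0 of 11 rose and 5 fell, with a median of -0.40, led by Cd5l at -1.50 ± 0.21 (adjusted p = 4.84e-05) and Axl at -1.13 ± 0.21 (adjusted p = 7.31e-04). With normexp and quantile normalization these were -0.87 (adjusted p = 2.12e-05) and -0.62 (adjusted p = 3.54e-04). The neutrophil list had 1 of 13 higher, Ctsg, at 0.34 ± 0.12 (adjusted p = 0.0411), a call lost in 10 of the 16 fits that left out a mouse. The B lineage list had 2 of 11 higher, Vpreb1 and Igll1, at 1.36 ± 0.37 (adjusted p = 0.0131) and 1.40 ± 0.42 (adjusted p = 0.0243). The T lineage list had 2 of 10 higher and 3 lower, led by Cd3d at 2.18 ± 0.11 (adjusted p = 4.93e-10) and Thy1 at -1.20 ± 0.16 (adjusted p = 2.86e-05). Meis1 of the stem and progenitor list had -0.63 ± 0.12 (adjusted p = 9.45e-04), and in limma 0 of the 4 skeletal muscle genes measured passed, also at an unadjusted p under 0.05.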

How the data were processed

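Marrow RNA of 16 mice was labelled with Cy3 and read on 1-colour arrays, per the labels' protocols. The scanner software was Agilent Feature Extraction, named as version 10.7 in the submitters' processing notes, while file headers give 10.1.1.1. Its deposited files hold a spot intensity on a linear scale from which background has been subtracted, per the file headers. The authors' deposited value table (59305 rows) holds log2 values, normalized per the labels. Its columns correlated with the log2 scanner signal at r of 0.991 or more and had medians of 4.98 to 5.00, and the sources used here do not say how they were centred.

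Each signal was taken relative to the 75th percentile of non-control spots on its array, as log2. Outlier spots (0.421%) were dropped and replicate spots averaged. A probe was kept where 6 or more of the 8 arrays in a group were well above background (32693 of 55681), and the brightest kept probe stood for a gene name (23061 names). The groups, taken from sample titles, were compared by limma 3.58.1 (R 4.3.3; lmFit and eBayes; two-sided), with Benjamini-Hochberg adjustment over all genes and a call at adjusted p under 0.05. On simulated data, 44 of 50 genes changed by 1 (log2) and 18 of 50 changed by 0.5 were recovered, with 15 false calls beside 200 changed genes. The changed genes were drawn from all genes, with noise independent between genes. The erythroid members vary together and have a median within-group SD of 0.77, against 0.27 over all genes. These recovery counts therefore do not hold for the members, whose recovery was not simulated. The arrays lay on 6 slides, 5 of which had both groups. Scanning took 2 days, and each day held 4 controls and 4 KO chimeras.

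Correlations were tested by exact permutation over all pairings, two-sided. Members, lists and relations were chosen with earlier results of these data known. All members are accounted for, with values by mouse for those called and for at least 1 member of most roles. Up to 3 called genes of smallest p are named from a pathway list (the 2 of smallest p if 0 were called) and up to 2 from a marker list. The other targeted receptor gene is not reported here.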

Additional observations from a re-analysis of the deposited data

Results flagged for a closer look

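Single mice stood apart from the rest of their group (gap to the nearest mouse over the whole range of the group above Dixon's 95% critical value for 8 mice) in 18 of 128 gene and group combinations checked, and chance gives about 1 in 20 where checks are independent, which these are not, since the members vary together. In 14 of the 18 the mouse was the control C5, always at the low end, and each of these genes is an erythroid member. Its signals (log2 over the array's 75th percentile) were Gata1 2.94, Gfi1b 1.97, Alad 1.96, Uros 2.67, Cpox 2.75, Slc11a2 -0.39, Epor 2.07, Add2 1.34, Rhag -0.060, Rhd 4.36, Ermap 2.51, Tspan33 4.11, Car1 3.62 and Car2 5.32. For Epor the nearest control was at 3.30 and for Rhd at 5.61. The erythroid level of C5 was -0.94, the lowest of the controls, and without C5 29 of 32 member differences lay below 0, against 26 with it.

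Among KO chimeras, Hemgn in KO6 was at 5.73, with the nearest mouse at 6.12. KO1 and KO2 are low in most members but, being close together, neither stands apart by this measure. Outside the members, Cd44 in C8 was at 1.95, Vpreb1 in C3 at 0.28 and Meis1 in C2 at -0.64.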

How the results depend on the processing

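The calls of Ppox and Hemgn held under other processing choices: quantile normalization, normexp background correction, the authors' values, a looser and a stricter filter on dim probes, probes averaged or tested singly, slide or scan day as a block, array brightness as a covariate, slides with both groups alone, and leaving out each mouse. Ppox ranged from -1.17 to -0.95 and Hemgn from 0.38 to 0.50. These choices gave 1 member higher and 1 lower each time, except that without KO7 Epb4.1 also passed, at -0.76. That made 2 lower, so that the count without each mouse ran from 1 to 2. For probes tested singly, this count takes the brightest probe of each gene. Over all 44 member probes 1 was higher and 3 were lower, among them dimmer probes of Slc25a37 and Epb4.1. The replicate number as a block (replicate block) changed neither call, with Ppox at -1.08 (adjusted p = 0.00587) and Hemgn at 0.44 (adjusted p = 0.0108). Mice with the same number did not deviate together (r from -0.19 to 0.20), and the numbers were not taken as pairs. The block moved no count of members, and among the named pathway genes and markers Hebp1, Pcbp2, Riok3 and Ctsg no longer passed under it.

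Alternatives chosen after seeing the data did change calls. Within the first scan day 0 members were higher and 0 lower, and within the second 1 was higher and 0 lower, with 4 mice per group. These fits kept the genes of the fit to all mice, a choice made after values with the filter on dim probes redone within the day had been seen. With that filter redone, Ppox passed on the first day (adjusted p = 0.0420) and not on the second (adjusted p = 0.0641), and Hemgn had adjusted p of 0.144 and 0.0395, which gave 0 higher on the first day and 0 lower on the second. With the erythroid level as a covariate 3 members were higher and 3 lower. Without the 2 mice of each group farthest in level, Ppox was at -0.83 (adjusted p = 0.00117) and Hemgn at 0.39 (adjusted p = 0.0389), and the median r among members was 0.78 in controls and 0.87 in KO chimeras.

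The sign of small differences that passed no test turned in several settings. With quantile normalization they were Slc25a37 0.0029 and Epb4.2 0.0027, with normexp Epb4.2 0.065, and with the authors' values Slc25a37 0.013 and Epb4.2 0.0051. The mean of a gene's probes gave Tfrc 0.22 and Slc11a2 -0.26. Slide as a block, over all slides and over slides with both groups, gave Epb4.2 0.019. Array brightness as a covariate gave Trim10 0.0014, Alas2 0.11, Alad 0.083, Uros 0.088, Tfrc 0.054, Slc25a37 0.12, Epor 0.14, Slc4a1 0.093, Epb4.2 0.20, Add2 0.16, Rhag 0.024 and Tspan33 0.037. Within the second scan day, with either filter, they were Alas2 0.060, Slc25a37 0.11 and Epb4.2 0.048. The erythroid level as a covariate gave Klf1 0.046, Trim10 0.031, Alas2 0.13, Alad 0.092, Uros 0.15, Fech 0.010, Tfrc 0.13, Slc25a37 0.16, Epor 0.16, Slc4a1 0.071, Epb4.2 0.28, Add2 0.19, Rhag 0.10 and Tspan33 0.057. Without the 2 mice farthest in level they were Klf1 0.22, Trim10 0.12, Alas2 0.17, Alad 0.13, Uros 0.21, Urod 0.011, Fech 0.036, Tfrc 0.27, Slc25a37 0.29, Epor 0.22, Slc4a1 0.24, Epb4.2 0.38, Add2 0.33, Rhag 0.20, Tspan33 0.17 and Car2 0.0095. Over the fits that left out a mouse, the ranges that crossed 0 were Alas2 -0.31 to 0.045, Slc25a37 -0.22 to 0.12, Epb4.2 -0.17 to 0.22, Slc11a2 -0.069 to 0.16, Kel -0.026 to 0.36, Car1 -0.16 to 0.21, Hba-a1 -0.018 to 0.11, Alad -0.32 to 0.047, Uros -0.23 to 0.10, Tfrc -0.23 to 0.093, Epor -0.28 to 0.13, Slc4a1 -0.41 to 0.029, Add2 -0.26 to 0.17, Rhag -0.42 to 0.032, Tspan33 -0.39 to 0.011, Klf1 -0.45 to 0.0096. The cause of these turns was not tested.

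Among the called genes outside the members, within-day values moved by over 1.5 times for Gata2 and Cat on the second day (-0.37, adjusted p = 0.224, and -0.23, adjusted p = 0.187). Those of Pcbp2 did so on the first and second (-0.59 and -0.14). Clec1b, at -2.87 over all mice, was at -0.83 (adjusted p = 0.0157) on the first day with the filter redone. It did not move by over 1.5 times on that day with the genes of the fit to all mice kept. The redone filter can let another probe stand for a gene, and the difference between Clec1b probes was not tested. Calls were lost within a day for more genes than these, with 4 mice per group and either filter. Jak2, Fth1, Cd44, Slc39a14, Cat, Bnip3, Slc25a39, Hebp1, Rbm38, Riok3 and Ctsg passed on neither day. Nfe2l2, Dmtn, Slc2a1, Axl, Vpreb1 and Igll1 lost the call on the first day alone. Gata2, Pcbp2, Cish and Meis1 lost it on the second alone. Riok3 was at -0.19 (adjusted p = 0.329) without the 2 mice of each group farthest in level. All 32 members were above background on all 16 arrays, and 0 spots were saturated.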
